A study of Rattus norvegicus with 138 samples.

Results

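Expression of 7 genes that other work has reported as variant or altered in the spontaneously hypertensive rat (SHR) was followed in 3 autonomic regions of the brainstem. The genes were taken by name from a list of 8, and rows for Acsm3, Ephx2, Gstm1, Endog, Chga, Srebf1 and Ogn were found among the 32883 gene rows of each region's count table. The eighth, Cd36, a receptor that takes up fatty acids, was not analysed here. RNA had been sequenced from punches of the nucleus of the solitary tract (NTS), the caudal ventrolateral medulla (CVLM) and the rostral ventrolateral medulla (RVLM) of 46 female rats. The rats were SHRs (SHR/NHsd) or normotensive Wistar-Kyoto controls (WKY/NHsd), and every rat gave 1 library per region. The rats were aged 8 wk (5 WKY rats and 5 SHRs), 10 wk (4 and 5), 12 wk (3 and 6), 16 wk (3 and 6) or 24 wk (3 and 6). Hypertension develops in SHRs over these ages, so the comparison asks whether a strain difference is there at the youngest age and whether it moves with age. The strains differ across the whole genome, so a difference between them cannot be told apart from strain background unrelated to blood pressure.

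The NTS receives input from arterial baroreceptors, the CVLM relays inhibition to the RVLM, and neurons of the RVLM drive sympathetic outflow to vessels and heart. The 7 genes do not form 1 pathway. Ephx2 encodes soluble epoxide hydrolase, which turns vasoactive epoxides of arachidonic acid into less active diols. Acsm3 encodes a mitochondrial enzyme that activates medium-chain fatty acids by joining them to coenzyme A, and Endog encodes endonuclease G, a nuclease of mitochondria. Gstm1 encodes a mu-class glutathione S-transferase, which conjugates glutathione to reactive compounds. Srebf1 encodes a transcription factor that switches on lipid synthesis, Chga encodes chromogranin A, a protein of dense-core secretory vesicles, and Ogn encodes osteoglycin, a small proteoglycan of the extracellular matrix.

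Promoter sequence was at hand for 5 of the 7 genes, in the RefSeq assembly GRCr8. Ephx2 and Chga had no entry. The 250 bases before the transcription start are printed for Acsm3 and Endog, the members that were lower in SHRs in the NTS at the averaged ages, so that a reader can place them. Capitals mark matches to the letters CCAAT or their reverse complement ATTGG, searched on both strands, which stand in 34.0% of 33469 promoters of this length. Acsm3 has 2 matches, which begin 92 and 68 bases before the start, and Endog has 1, which begins 121 bases before it. A match is given as a description of the letters only. The Acsm3 promoter is chr1:183564402-183564651 and the Endog promoter chr3:33846685-33846934, both on the plus strand.
Acsm3: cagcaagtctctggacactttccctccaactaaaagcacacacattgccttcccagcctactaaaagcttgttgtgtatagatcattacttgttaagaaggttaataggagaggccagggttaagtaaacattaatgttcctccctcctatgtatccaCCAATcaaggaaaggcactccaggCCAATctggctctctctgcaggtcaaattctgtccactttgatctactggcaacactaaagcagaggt
Endog: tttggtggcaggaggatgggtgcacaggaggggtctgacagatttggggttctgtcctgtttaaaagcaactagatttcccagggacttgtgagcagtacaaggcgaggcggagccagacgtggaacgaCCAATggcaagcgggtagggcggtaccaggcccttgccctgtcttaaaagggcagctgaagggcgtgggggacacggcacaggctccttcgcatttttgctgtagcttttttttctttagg

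Libraries held 5904581 to 17889417 counts, with a median of 10143036 over all libraries. Levels are given as CPM, or counts per 1000000 counts, which are a gene's counts divided by the library's total after TMM scaling within the region. They compare libraries for a gene and not genes with each other, since transcript length was not taken into account. In a bulk punch, fewer cells of a type and less RNA per cell cannot be told apart. All 5 neuronal markers, among them Snap25 and Rbfox3, were measured in every region. No marker list had a gene at 0 in all libraries of a region. The summed markers of noradrenergic and adrenergic neurons, which mark cell groups of all 3 regions, ran from 147 to 394 CPM in the NTS, from 167 to 449 CPM in the CVLM and from 25.6 to 322 CPM in the RVLM. Summed cholinergic markers ran from 640 to 2477 CPM in the RVLM and from 59.7 to 252 CPM in the CVLM. Choroid plexus markers, of which Ttr is the most abundant, summed to 110 to 4508 CPM in 5 NTS libraries, all of WKY rats, and to no more than 11.5 CPM in the other NTS libraries. Library names end in the number 1 or 2, whose meaning is not given in the sources used here. The number 2 marks all rats of 10 wk, 3 of the 5 WKY rats of 8 wk, and 1 SHR each at 12 and 24 wk. The labels of 2 CVLM libraries give different ages in the title and the age field. They were placed at 8 wk, as titled, and without them no call of a member was lost or gained.

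Strains were compared with edgeR's quasi-likelihood test in 1 fit per region, over genes whose largest log-scale value in the region reached 3.5. All 7 genes passed this filter in the NTS, and 6 passed in the CVLM and in the RVLM, where Acsm3 did not. A difference was called when its Benjamini-Hochberg adjusted p over all genes tested was under 0.05. With the 5 ages weighted equally, 3 of 7 members were called in the NTS, where 11.2% of all 13793 genes were called. In the CVLM 1 of 6 was called beside 12.3% of 13408 genes, and in the RVLM 3 of 6 beside 10.8% of 13411 genes. Across the regions these were 7 of 19 values, 3 of them higher in SHRs and 4 lower. All 3 higher values were those of Ephx2. The 4 lower values were those of Acsm3 in the NTS, Endog in the NTS and RVLM, and Chga in the RVLM. Srebf1, Gstm1 and Ogn had no call in any region for the averaged effect.

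**Figure D1:**
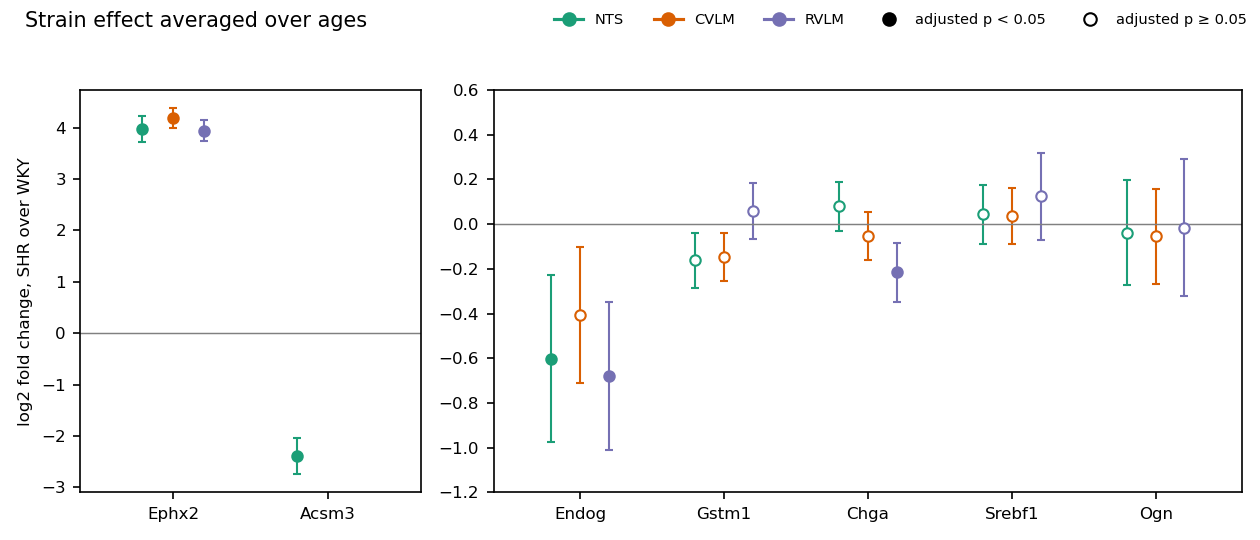
The log2 fold change of SHRs over WKY rats, averaged over 5 ages with equal weights, is plotted for each gene by region with its 95% interval, on a wider scale for Ephx2 and Acsm3 at the left than for the other genes at the right. Filled points are called and open points are not, and Ephx2 stands near 4 in all regions while the genes at the right lie between -0.68 and 0.12.

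Ephx2 had the widest gap between strains of the 7 genes in all 3 regions, and no library of SHRs overlapped with any of WKY rats. In the NTS, the 28 SHR libraries ran from 24.9 to 48.0 CPM with a median of 33.4, and the 18 WKY libraries from 0.880 to 3.73 CPM with a median of 2.05. In the CVLM, SHRs ran from 18.3 to 27.4 CPM with a median of 21.7 and WKY rats from 0.456 to 1.81 CPM with a median of 1.34. In the RVLM, SHRs ran from 22.1 to 40.0 CPM with a median of 31.1 and WKY rats from 1.19 to 3.49 CPM with a median of 1.92. The lowest SHR library of each region thus stood well above the highest WKY library. WKY levels rested on few reads, from 6 to 48 counts per library, while the SHR libraries held at least 124 counts. Averaged over the ages, Ephx2 was 15.7-fold higher in SHRs in the NTS (95% interval 13.2 to 18.7, adjusted p = 2.67e-27). It was 18.2-fold higher in the CVLM (15.9 to 20.8, adjusted p = 9.25e-33) and 15.3-fold higher in the RVLM (13.3 to 17.6, adjusted p = 2.12e-30).

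This difference was called at each of the 5 ages in each region. In the NTS, the log2 fold changes were 4.21 (SE 0.24) at 8 wk, 3.66 (SE 0.25) at 10 wk, 4.02 (SE 0.29) at 12 wk, 3.85 (SE 0.29) at 16 wk and 4.13 (SE 0.30) at 24 wk. In the CVLM they ran from 3.83 (SE 0.22) at 16 wk to 4.46 (SE 0.20) at 10 wk, and in the RVLM from 3.63 (SE 0.20) at 10 wk to 4.17 (SE 0.24) at 16 wk. The joint test for a strain effect that varies with age was not called in any region (adjusted p = 0.731 for the NTS, 0.531 for the CVLM and 0.887 for the RVLM). The change from 8 to 24 wk within SHRs was -0.01 (SE 0.19) in the NTS, 0.12 (SE 0.14) in the CVLM and -0.17 (SE 0.15) in the RVLM, none of them called. At 8 wk, the youngest age, the 5 SHR values in the NTS were 33.2, 33.4, 36.1, 36.4 and 48.0 CPM and the 5 WKY values 1.58, 1.81, 2.01, 2.15 and 2.55 CPM. Every count of Ephx2 was a whole number. Within groups, Ephx2 followed none of the 12 marker lists closely, with values of r between -0.0658 and 0.225 over the libraries of all regions.

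**Figure D2:**
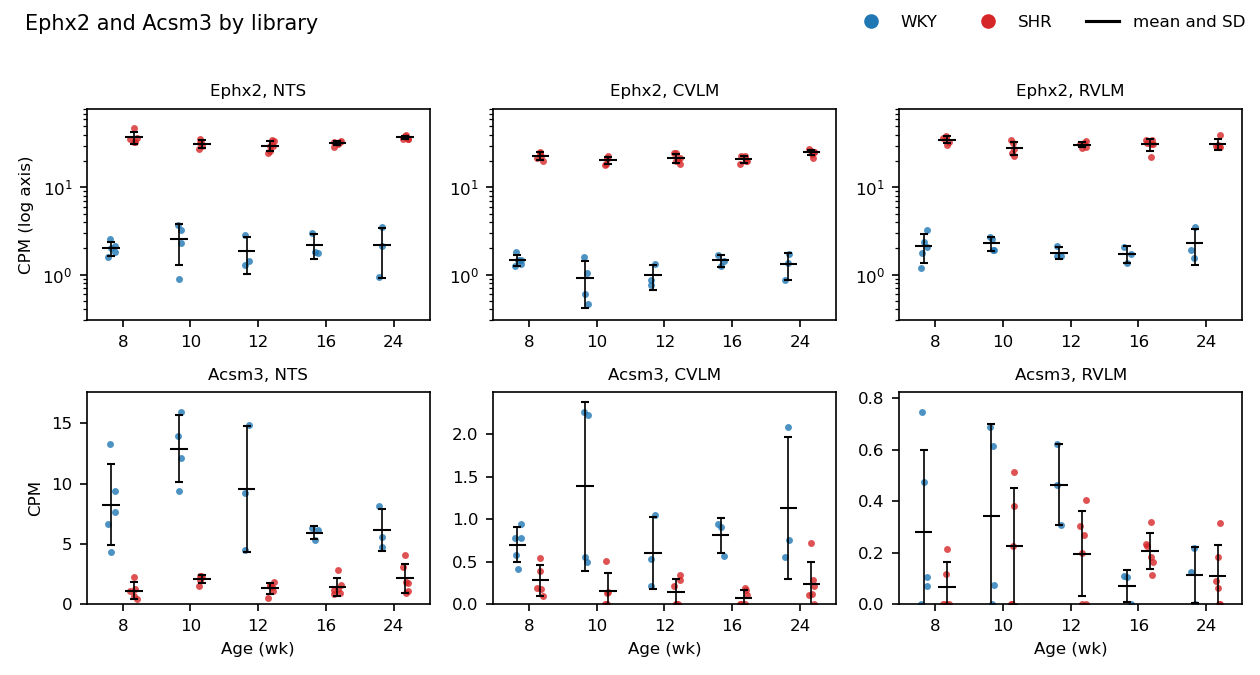
Each point is the CPM of Ephx2 (top, log axis) or Acsm3 (bottom, linear axis, scale set per region) in 1 library, by age in wk with evenly spaced ages, with the mean and SD of each strain. For Ephx2 the SHR points lie above 18 CPM and the WKY points below 4 CPM in every region, and for Acsm3 in the NTS the SHR points lie below all WKY points.

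The level of Ephx2 also differed between regions, in a fit over the libraries of all regions with the rat as a block. It was lower in the CVLM than in the NTS, by a log2 difference of 0.56 (SE 0.07) for NTS over CVLM, and lower than in the RVLM, by -0.67 (SE 0.07) for CVLM over RVLM. The NTS and RVLM were not called different (-0.11, SE 0.07, adjusted p = 0.124). The strain effect itself was not called different between any regions, with differences of -0.22 (95% interval -0.49 to 0.05) for NTS over CVLM, 0.05 (-0.26 to 0.37) for NTS over RVLM and 0.27 (-0.00 to 0.55) for CVLM over RVLM.

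Among 13 other epoxide hydrolases and eicosanoid enzymes, 2 were higher and none lower in SHRs in the NTS, 1 was higher and 2 lower in the CVLM, and 3 were higher and 1 lower in the RVLM, as called by edgeR, and over all genes 11.2%, 12.3% and 10.8% were called in these regions. The same shares stand beside the counts of the other gene lists. The median log2 fold change of these 13 genes, without Ephx2, was 0.04, 0.19 and 0.18 in the NTS, CVLM and RVLM. Over all genes tested it was 0.01, -0.00 and 0.01. Cyp4f6, a cytochrome P450 of the family that hydroxylates fatty acids, was higher in SHRs by 0.26 (SE 0.07), 0.30 (SE 0.08) and 0.25 (SE 0.06) in the NTS, CVLM and RVLM. Ephx4, a further member of the epoxide hydrolase family, was higher in the NTS by 0.57 (SE 0.13), and its CVLM and RVLM values of 0.07 and 0.18 were not called.

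The genes next to Ephx2 on its chromosome, by the gene order of RefSeq GRCr8, were also looked at. Of the 3 nearest tested protein-coding genes on each side, 5 of 6 were called in at least 1 region. Among 16 values tested, 5 were higher and 5 lower in SHRs. Over all genes 11.2%, 12.3% and 10.8% were called in the NTS, CVLM and RVLM. The share called in at least 1 region was not computed, so the count of 5 of 6 has no background beside it. Ptk2b, a tyrosine kinase, was higher by 0.28 (SE 0.08), 0.21 (SE 0.06) and 0.38 (SE 0.07) in the NTS, CVLM and RVLM, and Ccdc25 was lower by -0.33 (SE 0.05), -0.22 (SE 0.04) and -0.36 (SE 0.06). Clu, which encodes the chaperone clusterin, was lower in the RVLM by -0.26 (SE 0.05). Scara3 was higher by 0.49 (SE 0.07) in the NTS and 0.30 (SE 0.07) in the CVLM. Chrna2, tested in the RVLM only, was lower there by -0.84 (SE 0.24). All of these were far smaller than the difference of Ephx2. The genes whose 30 group means over region, strain and age followed Ephx2 most closely, of 13116 genes tested in all regions, were Chi3l1 (Pearson's r = 0.987), LOC100360940 (0.983) and the interferon-induced gene Ifit1 (0.983). These means share rats and the strain contrast, so the values of r only describe the likeness.

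Acsm3 was lower in SHRs in the NTS, where its level was highest. The 5 WKY values at 8 wk were 4.35, 6.64, 7.67, 9.36 and 13.3 CPM, and the 5 SHR values were 0.401, 0.639, 1.07, 1.22 and 2.23 CPM. At 10 wk, WKY values were 9.41, 12.2, 14.0 and 16.0 CPM and SHR values 1.51, 2.03, 2.24, 2.31 and 2.36 CPM. The highest Acsm3 value of the series was thus that of a WKY rat of 10 wk. At 12 wk, WKY values were 4.50, 9.22 and 14.9 CPM and the 6 SHR values ran from 0.541 to 1.83 CPM with a median of 1.46. At 16 wk, WKY values were 5.29, 6.18 and 6.33 CPM and SHR values ran from 0.803 to 2.85 CPM with a median of 1.23. At 24 wk, WKY values were 4.74, 5.60 and 8.15 CPM and SHR values ran from 0.907 to 4.09 CPM with a median of 1.79. The strains did not overlap at any age, and the highest SHR value of all, 4.09 CPM, was just below the lowest WKY value of all, 4.35 CPM. Averaged over the ages, Acsm3 was 5.24-fold lower in SHRs (log2 fold change -2.39, 95% interval -2.74 to -2.04, adjusted p = 1.23e-14).

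By age, the Acsm3 difference was called at all 5 ages, with log2 fold changes of -2.90 (SE 0.40) at 8 wk, -2.61 (SE 0.37) at 10 wk, -2.87 (SE 0.39) at 12 wk, -2.05 (SE 0.40) at 16 wk and -1.51 (SE 0.39, adjusted p = 0.0202) at 24 wk. Values were nearer to 0 at the later ages, but the joint test for a strain effect that varies with age was not called (adjusted p = 0.453), nor was the change from 8 to 24 wk within SHRs (0.97, SE 0.40, adjusted p = 0.549) or within WKY rats (-0.42, SE 0.40, adjusted p = 0.573). The call at 24 wk was lost without WKY replicate 3 (-1.26, adjusted p = 0.211), SHR replicate 1 (-1.35, adjusted p = 0.0576) or SHR replicate 5 (-1.38, adjusted p = 0.0586), and with 24 wk fitted on its own (adjusted p = 0.141). The choroid plexus markers moved with Acsm3: 3 of the 4 were lower in SHRs in the NTS, and their sum ran from 3.11 to 4508 CPM in WKY rats and from 2.03 to 9.98 CPM in SHRs. Without the 5 NTS libraries above 100 CPM, the averaged difference of Acsm3 was -2.09 (adjusted p = 5.76e-11), and at 12 wk, where only 1 WKY rat was left, it was -1.80 (adjusted p = 0.176). Within groups, Acsm3 levels in the 46 NTS libraries varied with astrocyte markers (r = 0.471), choroid plexus markers (r = 0.398) and endothelial markers (r = -0.512). The part of these cells in the Acsm3 difference was not tested beyond leaving out those libraries.

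In the CVLM and RVLM, Acsm3 was near the limit of detection. In the CVLM its mean was 0.926 ± 0.622 CPM (SD, n = 18) in WKY rats and 0.176 ± 0.188 CPM (SD, n = 28) in SHRs, and 21 of the 28 SHR libraries lay below every WKY library. In the RVLM the means were 0.262 ± 0.266 CPM (SD, n = 18) and 0.161 ± 0.147 CPM (SD, n = 28), and the ranges overlapped. With no filter on low counts, the averaged log2 fold change was -2.41 (SE 0.35, adjusted p = 7.89e-07) in the CVLM, where 7.53% of genes were then called, and -0.49 (SE 0.52, adjusted p = 0.819) in the RVLM, where 6.89% were. Acsm3 entered edgeR's fit over all regions only through its level in the NTS. The difference in strain effect that this fit gave for NTS over RVLM, -1.91 (adjusted p = 0.0492), is therefore not read as a difference between regions. It was 1 of 2 members called of 7 for this pair of regions, beside 1.82% of 14043 genes. With edgeR's own expression filter it was -1.91 (adjusted p = 0.0507), and without the rats of number 2 outside 10 wk it was -1.82 (adjusted p = 0.0849). For NTS over CVLM and CVLM over RVLM no member was called, beside 0.449% and 0.32% of genes, although limma on within-rat differences called Acsm3 for CVLM over RVLM (-1.38, adjusted p = 0.0212, against -1.91 and 0.254 in edgeR). At these counts no strain difference was called in the RVLM. With an SE of 0.52 about a value of -0.49, even a sizeable difference could have been missed.

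The level of Acsm3 in the NTS was 8.56-fold that in the CVLM and 18.0-fold that in the RVLM. The level in the CVLM was 2.10-fold that in the RVLM. Acsm3 entered this fit only through its level in the NTS, so these values describe its level and their calls are not read as tests. Its counts were not whole in 100% of NTS libraries and in 73.9% and 71.7% of CVLM and RVLM libraries, as RSEM gives where it divides reads between genes, so its level holds that uncertainty. Of the 6 nearest tested neighbours, which include Acsm5, none was called in any region. Among 10 other tested acyl-CoA synthetases, 1 was higher and none lower in the NTS, and 2 were higher and 2 lower in the CVLM and in the RVLM. Acsf2, a mitochondrial synthetase of the same broad family, was higher in SHRs by 0.36 (SE 0.05), 0.44 (SE 0.05) and 0.38 (SE 0.07) in the NTS, CVLM and RVLM, which is opposite in sign to Acsm3. Acss1, which activates acetate in mitochondria, was higher in the CVLM by 0.48 (SE 0.07) and in the RVLM by 0.56 (SE 0.09). In the fatty acid uptake list fixed for Cd36, 1 of 13 genes was higher in the NTS, and 3 were higher and 2 lower of 12 in the CVLM and 3 higher and 1 lower of 12 in the RVLM. Slc27a2, a fatty acid transport protein, was higher in SHRs by 0.65 (SE 0.10), 0.67 (SE 0.12) and 0.56 (SE 0.19) in the NTS, CVLM and RVLM.

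Endog was lower in SHRs in the NTS and the RVLM, with wide spread among WKY rats. In the NTS, WKY libraries had a median of 33.3 CPM and reached from 4.57 up to 53.98 CPM, and SHR libraries from 12.7 to 34.2 CPM with a median of 20.4. In the RVLM, WKY libraries ran from 3.64 to 48.7 CPM with a median of 22.2, and SHR libraries from 6.69 to 27.8 CPM with a median of 13.4. The ranges overlapped, but 27 of 28 SHR libraries in the NTS and 25 of 28 in the RVLM lay below the WKY median. The averaged log2 fold change was -0.60 (SE 0.18, adjusted p = 0.0249) in the NTS and -0.68 (SE 0.16, adjusted p = 0.00298) in the RVLM. In the CVLM it was -0.41 (SE 0.15, adjusted p = 0.0730), which was not called, while DESeq2 (-0.40, adjusted p = 0.0498) and 2 surrogate variables (-0.37, adjusted p = 0.00308) did call it. It was also called without WKY replicate 1 of 8 wk, 2 of 12 wk or 1 of 24 wk, or SHR replicate 1 of 12 wk (adjusted p = 0.0124 to 0.0469). The strain effect was not called different between regions, for example by 0.21 (95% interval -0.17 to 0.59) for NTS over RVLM.

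The Endog result in the NTS rested on a WKY rat of 24 wk. The 3 values of that group were 4.57, 5.45 and 45.9 CPM, while the 6 SHR values ran from 14.2 to 28.4 CPM with a median of 20.2, so that WKY rats lay on either side of all SHRs. The same rats gave 3.64, 10.4 and 26.8 CPM in the RVLM and 10.6, 25.3 and 35.5 CPM in the CVLM. Values are listed in rising order within a region and are not matched by rat. Replicate 3, for example, gave 5.45 CPM in the NTS and 35.5 CPM, the highest of the group, in the CVLM. Without WKY replicate 2 of 24 wk, the averaged difference in the NTS was -0.23 (adjusted p = 0.374), the difference at 24 wk was 2.04 (adjusted p = 0.00275), and Endog was lower in WKY rats of 24 than of 8 wk by -2.65 (adjusted p = 0.00340) in the NTS and by -2.14 (adjusted p = 0.0432) in the RVLM. The NTS call was also lost without WKY replicate 1 of 12 wk (-0.51, adjusted p = 0.0729), without WKY replicate 3 of 16 wk (-0.56, adjusted p = 0.0523), without the rats of number 2 outside 10 wk (-0.60, adjusted p = 0.0546) and with a replicate block (-0.55, adjusted p = 0.0778). The averaged call in the RVLM held at an adjusted p under 0.05 in all 8 alternative fits and for every library left out, and fell short of the stricter call, which asks for a log2 fold change of at least 1 in size.

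At single ages, Endog was called only in the RVLM at 8 wk (log2 fold change -1.24, SE 0.34, adjusted p = 0.0195). There the 5 WKY values were 20.3, 21.0, 24.9, 39.5 and 48.7 CPM and the 5 SHR values 6.69, 10.4, 14.5, 15.2 and 18.4 CPM, without overlap. The call was lost without WKY replicate 3 (-1.03, adjusted p = 0.0930), SHR replicate 3 (-1.07, adjusted p = 0.0747) or SHR replicate 5 (-1.17, adjusted p = 0.0541), without the rats of number 2 (-1.33, adjusted p = 0.144), with 8 wk fitted alone (adjusted p = 0.0687), and with 2 surrogate variables (-0.46, adjusted p = 0.252). SHRs also lay below all WKY rats at 10 wk in each region and at 16 wk in the NTS, with log2 fold changes of -0.99, -0.60 and -0.78 at 10 wk in the NTS, CVLM and RVLM and of -0.95 at 16 wk. These were not called, but each was with its age fitted alone (adjusted p = 0.0176, 0.0259 and 0.0146 at 10 wk and 0.0188 at 16 wk), and the NTS values also were with 2 surrogate variables (-0.88, adjusted p = 0.0171, and -0.94, adjusted p = 0.0195). Endog counts were not whole in 97.8% of NTS and CVLM libraries and 95.7% of RVLM libraries. Its deviations from the group means over the libraries of all regions followed those of Scand1 (r = 0.890), Tmem160 (0.887) and the mitochondrial ribosomal protein gene Mrps24 (0.873) most closely, a description over libraries that share rats.

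Among 15 other genes for mitochondrial nucleases and upkeep of mitochondrial DNA, none was higher and 1 lower in the NTS, 2 were lower in the CVLM, and 1 was higher and 2 were lower in the RVLM. Polg2, the accessory subunit of the mitochondrial DNA polymerase, was lower in SHRs by -0.45 (SE 0.09), -0.30 (SE 0.09) and -0.38 (SE 0.11) in the NTS, CVLM and RVLM. Tfb2m, a mitochondrial transcription factor, was lower in the CVLM by -0.30 (SE 0.05) and in the RVLM by -0.27 (SE 0.07). Of the 6 neighbours of Endog, Kyat1, which encodes kynurenine aminotransferase, was lower in SHRs in all regions, by -0.48 (SE 0.07), -0.60 (SE 0.05) and -0.51 (SE 0.07). Zdhhc12, a palmitoyltransferase, was lower in the CVLM by -0.26 (SE 0.08) and in the RVLM by -0.28 (SE 0.09), and the other 4 neighbours were not called.

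**Figure D3:**
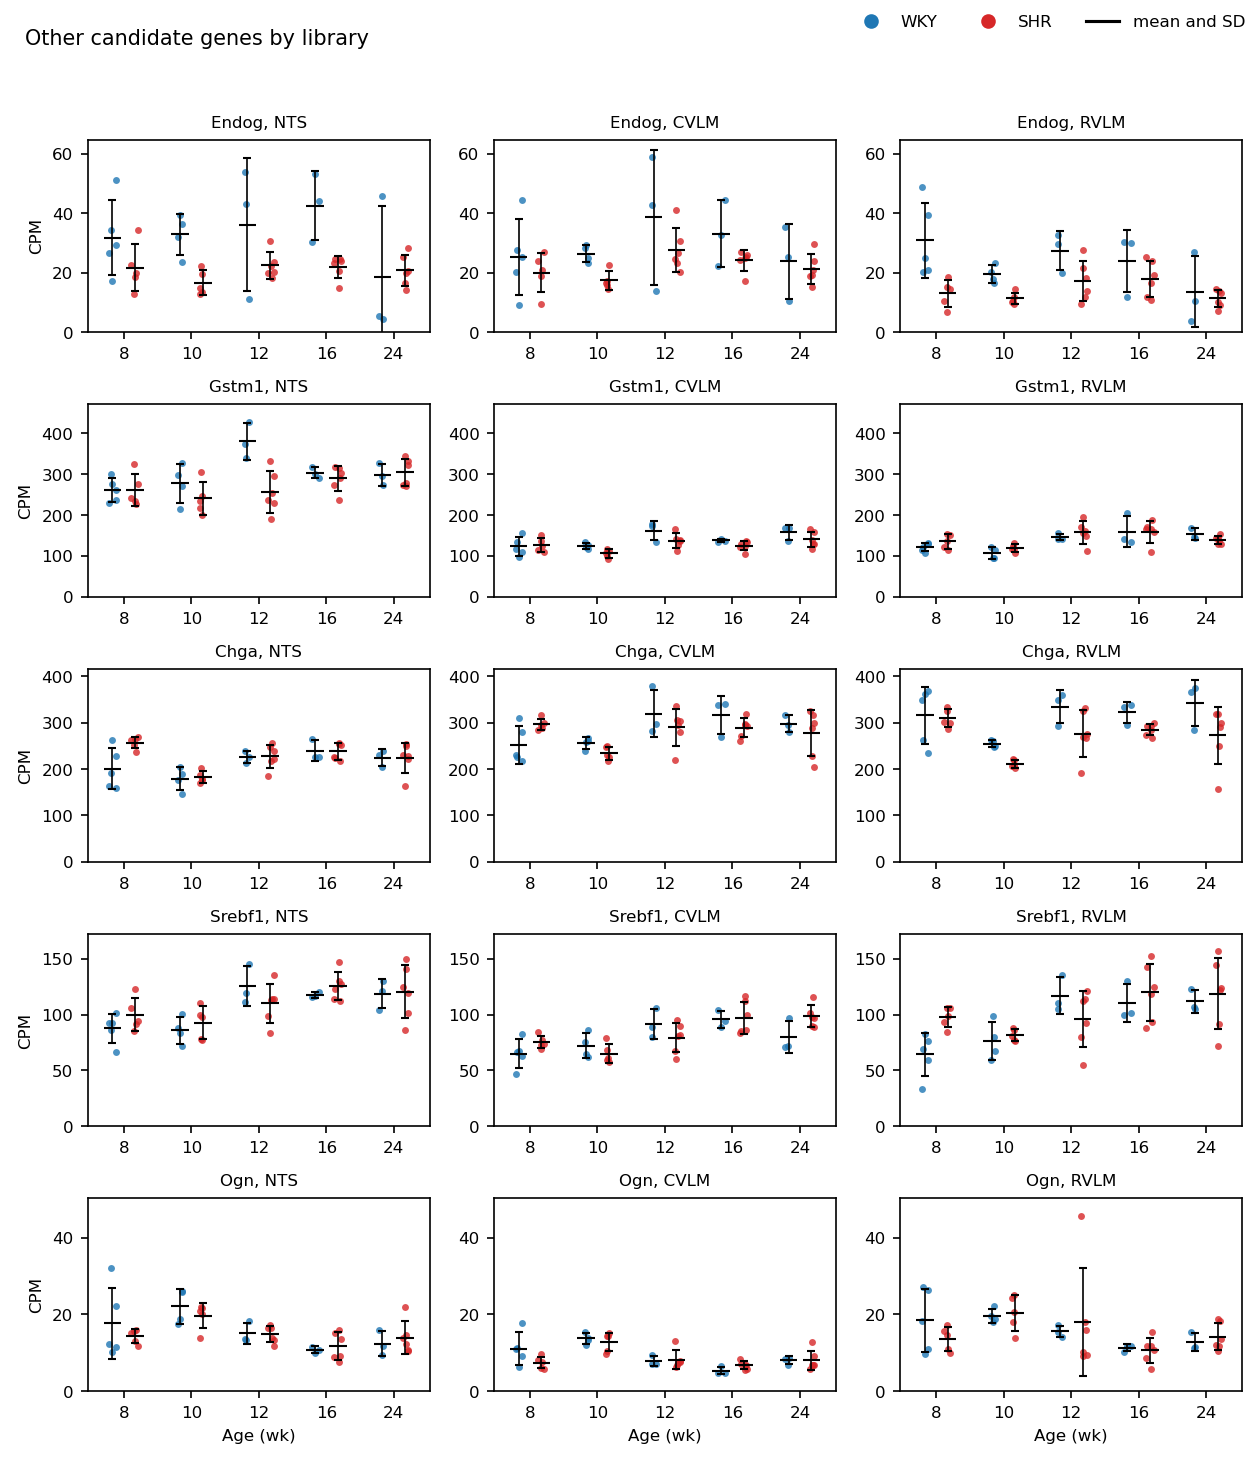
Each point is the CPM of Endog, Gstm1, Chga, Srebf1 or Ogn in 1 library, by age in wk with evenly spaced ages, with the mean and SD of each strain; rows are genes and columns regions, and the linear axis is shared across a row. The strains overlap in most panels, the WKY points of Endog spread more widely than the SHR points, and 1 SHR point of Ogn at 12 wk in the RVLM stands alone at 45.6 CPM.

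Chga was lower in SHRs in the RVLM and was not called in the NTS or CVLM. Its RVLM libraries ran from 235 to 375 CPM with a median of 315 in WKY rats and from 158 to 333 CPM with a median of 286 in SHRs, so that the ranges overlapped and 22 of 28 SHR libraries lay below the WKY median. The averaged log2 fold change was -0.21 (SE 0.07, adjusted p = 0.0235) in the RVLM, -0.05 (SE 0.05, adjusted p = 0.628) in the CVLM and 0.08 (SE 0.05, adjusted p = 0.452) in the NTS. The RVLM call was lost with a replicate block (-0.15, adjusted p = 0.120) and without WKY replicate 1 of 24 wk (-0.20, adjusted p = 0.0574). The strain effect of Chga differed between the NTS and the RVLM by 0.30 (SE 0.05, adjusted p = 0.000227) in edgeR's fit over all regions with the rat as a block. This call held under every alternative at an adjusted p under 0.05. With each rat left out in turn it was refitted only by limma on differences within rats, and it held there. The difference between the CVLM and the RVLM was 0.18 (SE 0.05, adjusted p = 0.254). The level of Chga rose from the NTS over the CVLM to the RVLM, with log2 differences of -0.50 (SE 0.03) for NTS over CVLM and -0.08 (SE 0.03) for CVLM over RVLM, both called.

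At single ages, Chga was called in the NTS at 8 wk, where SHRs were higher by 0.36 (SE 0.11, adjusted p = 0.0469). The 5 SHR values were 238, 251, 263, 264 and 269 CPM and the 5 WKY values 160, 163, 190, 228 and 262 CPM, so that the ranges overlapped. The 3 WKY rats of number 2 held the 3 lowest values, 160 to 190 CPM, and the 2 of number 1 held 228 and 262 CPM. Without the number-2 rats the difference was 0.07 (adjusted p = 0.853), and with the number as a term it was 0.10 (adjusted p = 0.734). The call was also lost with 2 surrogate variables (0.22, adjusted p = 0.193), with 8 wk fitted alone (adjusted p = 0.237), and without WKY replicate 3 (0.29, adjusted p = 0.169) or 4 (0.29, adjusted p = 0.173). At 10 wk in the RVLM the strains did not overlap, with 5 SHR values of 203 to 221 CPM and 4 WKY values of 247 to 262 CPM, but the difference of -0.27 (SE 0.14) was not called.

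Of 12 other granins and dense-core vesicle genes, 2 were lower in SHRs in the NTS and none was called in the CVLM or RVLM. Pcsk1, a convertase that processes prohormones, was lower in the NTS by -0.27 (SE 0.08, adjusted p = 0.0302), and Cyb561, a vesicle cytochrome, by -0.17 (SE 0.05, adjusted p = 0.0191). Of the 6 neighbours of Chga, only Rin3 was called, lower in the NTS by -0.42 (SE 0.12). Within groups, Chga levels in the libraries of all regions went with the total count (r = -0.455), blood markers (r = 0.474) and endothelial markers (r = 0.471). Of the 4 blood markers 1, 3 and 3 were lower in SHRs in the NTS, CVLM and RVLM, where their sum ran from 246 to 1556 CPM in WKY rats and from 153 to 891 CPM in SHRs of the RVLM. The part of blood cells in the difference of Chga was not tested.

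Srebf1 was not called for the averaged effect, with log2 fold changes of 0.04 (95% interval -0.09 to 0.18) for the NTS, 0.04 (-0.09 to 0.16) for the CVLM and 0.12 (-0.07 to 0.32) for the RVLM. It was called at 8 wk in the RVLM, where SHRs were higher by 0.60 (SE 0.20, adjusted p = 0.0462). The 5 SHR values were 84.8, 93.2, 99.0, 106 and 106 CPM and the 5 WKY values 33.4, 59.7, 69.6, 76.3 and 82.9 CPM, without overlap. The 3 WKY rats of number 2 again held the 3 lowest values, 33.4 to 69.6 CPM. Without the number-2 rats the difference was 0.27 (adjusted p = 0.762), with the number as a term 0.29 (adjusted p = 0.468), with 2 surrogate variables 0.24 (adjusted p = 0.381), and with 8 wk fitted alone the adjusted p was 0.156. Leaving out WKY replicate 3 gave 0.43 (adjusted p = 0.176). The change from 8 to 24 wk was not called in either strain in edgeR, with 0.79 (SE 0.22, adjusted p = 0.0851) within WKY rats of the RVLM and 0.28 (SE 0.19, adjusted p = 0.681) within SHRs. The level of Srebf1 was lower in the CVLM than in the NTS by 0.27 (SE 0.04) for NTS over CVLM and than in the RVLM by -0.30 (SE 0.04) for CVLM over RVLM, while NTS over RVLM was -0.03 (SE 0.04, adjusted p = 0.484).

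**Figure D4:**
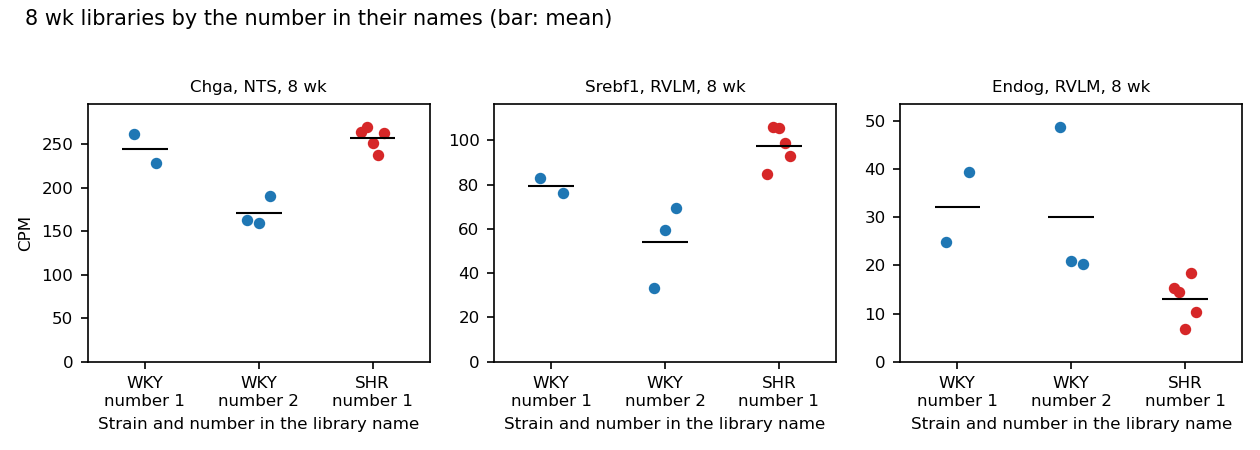
Each point is the CPM of Chga in the NTS, or of Srebf1 or Endog in the RVLM, in 1 library of an 8 wk rat, grouped by strain and by the number that ends the library name, with the group mean as a bar. The WKY points of number 2 lie below those of number 1 for Chga and Srebf1, and for Endog they lie on both sides of them.

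Srebf1 encodes a regulator, so genes that SREBP factors control were also counted. Of 25 regulators and targets tested in the NTS and 24 in each of the other regions, none was higher in SHRs. In the NTS, CVLM and RVLM 3, 5 and 3 were lower, with median log2 fold changes of -0.01, 0.01 and 0.02 over these genes. Beside the 11.2%, 12.3% and 10.8% called over all genes, 3 of 25 and 3 of 24 are near the background, so the genes named here are values of single genes. Lss, which encodes lanosterol synthase of cholesterol synthesis, was lower in SHRs by -0.78 (SE 0.05), -1.01 (SE 0.05) and -0.90 (SE 0.08). Thrsp, a lipogenic regulator, was lower by -1.42 (SE 0.14), -0.71 (SE 0.12) and -0.50 (SE 0.08), and Sqle, squalene epoxidase of cholesterol synthesis, by -0.16 (SE 0.04), -0.23 (SE 0.04) and -0.21 (SE 0.04). Myelin is rich in cholesterol, and of the 5 oligodendrocyte markers 1, 4 and 3 were lower in SHRs in the NTS, CVLM and RVLM. Their sum ran from 39459 to 73471 CPM in WKY rats and from 37557 to 63751 CPM in SHRs of the CVLM. The medians of this sum in WKY rats and SHRs were 27631 and 29713 CPM in the NTS. They were 53735 and 47201 CPM in the CVLM and 43731 and 41462 CPM in the RVLM. The part of oligodendrocytes in the differences of Lss, Thrsp and Sqle was not tested. Of the 6 neighbours of Srebf1, Atpaf2, an assembly factor of mitochondrial ATP synthase, was lower in all regions, by -0.22 (SE 0.05), -0.24 (SE 0.04) and -0.20 (SE 0.05).

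Gstm1 was not called for the averaged effect in any region, and its values in the NTS and CVLM were close to the threshold. Its log2 fold change was -0.16 (95% interval -0.29 to -0.04, adjusted p = 0.0813) in the NTS, -0.15 (-0.26 to -0.04, adjusted p = 0.0647) in the CVLM and 0.06 (-0.06 to 0.18, adjusted p = 0.635) in the RVLM. The NTS value was called with 2 surrogate variables (-0.16, adjusted p = 0.0275) and without WKY replicate 2 of 10 wk or SHR replicate 3 of 8 wk, 1 of 10 wk or 1 of 12 wk (adjusted p = 0.0374 to 0.0426). The CVLM value was called without WKY replicate 1 of 8 wk, 2 of 12 wk or 2 of 24 wk, or SHR replicate 6 of 12 wk or 2 or 4 of 24 wk (adjusted p = 0.0242 to 0.0492). At single ages, it was lower in SHRs in the NTS at 12 wk by -0.57 (SE 0.14, adjusted p = 0.0102). The 3 WKY values there were 339, 374 and 428 CPM and the 6 SHR values ran from 191 to 333 CPM with a median of 246, without overlap. The call was lost without WKY replicate 2 of 12 wk (-0.46, adjusted p = 0.202), with 12 wk fitted alone (adjusted p = 0.180) and without the NTS libraries with choroid plexus markers above 100 CPM (-0.54, adjusted p = 0.362), among which are WKY replicates 2 and 3 of 12 wk. Within groups, Gstm1 varied with the 3 ependymal markers measured (r = 0.660 over the libraries of all regions), whose sum ran from 12.9 to 52.8 CPM in WKY rats and from 8.58 to 27.3 CPM in SHRs of the NTS, with 1 of them lower in SHRs. The part of ependyma in the difference was not tested. The level of Gstm1 in the NTS was 1.94-fold that in the CVLM and 1.81-fold that in the RVLM.

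Of the 4 mu-class genes among the neighbours of Gstm1, Gstm2 and Gstm4 were called and Gstm6 and Gstm3 were not. Gstm2 was lower in SHRs by -0.57 (SE 0.08), -0.54 (SE 0.08) and -0.47 (SE 0.08) in the NTS, CVLM and RVLM, and Gstm4 by -0.46 (SE 0.05), -0.36 (SE 0.05) and -0.43 (SE 0.07). Gstm6 had log2 fold changes of -0.32 (adjusted p = 0.0649), -0.14 (0.625) and 0.47 (0.0998), and Ampd2 and Gnat2, the neighbours outside the family, were not called. Counts of Gstm1 were whole in all libraries, but members of this family resemble each other in sequence, so their counts are uncertain. Over the 17 other glutathione S-transferases tested in the NTS and CVLM and 18 in the RVLM, 1 was higher in each region and 3, 5 and 4 were lower. The higher 1 was Gstt3 of the theta class, by 0.73 (SE 0.06), 0.74 (SE 0.04) and 0.81 (SE 0.06), and Gstt2 of the same class was lower by -0.42 (SE 0.11), -0.57 (SE 0.08) and -0.67 (SE 0.09).

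Ogn was not called for the averaged effect or at any age. Its averaged log2 fold change was -0.04 (95% interval -0.27 to 0.20) for the NTS, -0.05 (-0.27 to 0.16) for the CVLM and -0.02 (-0.32 to 0.29) for the RVLM. SHR libraries ran from 7.58 to 22.0 CPM in the NTS, from 5.59 to 15.0 CPM in the CVLM and from 5.69 to 45.6 CPM in the RVLM, and WKY libraries from 9.38 to 31.9, from 4.75 to 17.8 and from 9.72 to 27.2 CPM. The strains overlapped in every region and at every age. The largest value, 45.6 CPM, came from SHR replicate 6 of 12 wk in the RVLM, a rat of number 2. Its 5 companions ran from 9.17 to 18.0 CPM. Its summed markers of leptomeninges and fibroblasts, 74.1 CPM, and of astrocytes, 2455 CPM, were the highest of the RVLM. Within groups, Ogn varied with leptomeningeal and fibroblast markers (r = 0.444) and with Chga (r = -0.490) over the libraries of all regions. Values of r were similar for neuronal markers (0.414), astrocyte markers (0.393) and the total count (0.375), and r was -0.314 for endothelial markers. At 8 wk, WKY rats of number 2 held 18.2 to 27.2 CPM in the RVLM and those of number 1 held 9.72 and 10.9 CPM. Ogn was highest in the RVLM and lowest in the CVLM, with log2 differences of -0.84 (SE 0.07) for CVLM over RVLM and -0.18 (SE 0.07) for NTS over RVLM, both called. Of its 6 neighbours, which include the related proteoglycan genes Aspn and Ecm2, none was called. In the list of small leucine-rich proteoglycans, 1 of 8 other genes in the CVLM and 1 of 9 in the RVLM was called. This was Prelp, higher in SHRs by 0.69 (SE 0.13) and 0.93 (SE 0.14).

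**Figure D5:**
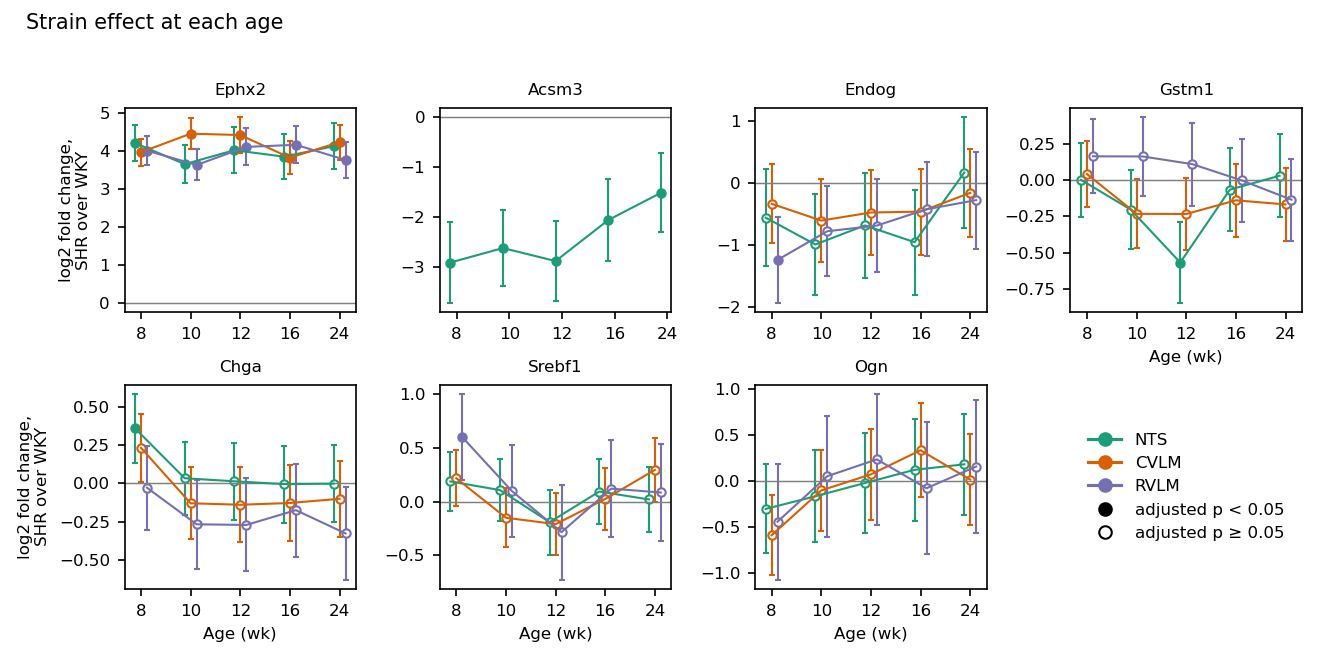
The log2 fold change of SHRs over WKY rats is plotted against age in wk, with evenly spaced ages, for each gene by region, with its 95% interval; filled points are called, open points are not, and each panel has its own scale. Ephx2 stays between 3.63 and 4.46, Acsm3 in the NTS runs from -2.90 at 8 wk to -1.51 at 24 wk, and called points of the other genes are single ages.

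Counted over single ages, 24 of 95 values were called, 17 higher and 7 lower in SHRs. Of the called values, 15 were those of Ephx2 and 5 those of Acsm3 in the NTS, so the other 5 genes had 4 calls, which were Endog and Srebf1 in the RVLM at 8 wk, Chga in the NTS at 8 wk and Gstm1 in the NTS at 12 wk. In the NTS, 3, 2, 3, 2 and 2 of 7 members were called from the youngest to the oldest age, beside 5.79%, 4.44%, 3.1%, 1.73% and 2.46% of all genes tested. In the CVLM, 1 of 6 was called at each age, beside 7.64%, 3.18%, 2.62%, 2.27% and 7.13%. In the RVLM, 3 of 6 were called at 8 wk and 1 of 6 at each later age, beside 9.78%, 2.3%, 1.7%, 1.65% and 2.24%. Of the 4 calls outside Ephx2 and Acsm3, 3 were at 8 wk, the age at which 3 of the 5 WKY rats carry the number 2 and no SHR does, and all 4 were lost under at least 1 alternative as given above.

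No member was called for a strain effect that varies with age. Of 19 values, none passed in edgeR's quasi-likelihood test or, among the 16 with an adjusted p, in DESeq2, and 1 had an unadjusted p under 0.05, that of Gstm1 in the NTS (0.0239, adjusted p = 0.389). Among all genes, 0.0145%, 0.0224% and 0.00746% were called in the NTS, CVLM and RVLM. For the change from 8 to 24 wk within a strain, none of 38 values was called in edgeR and 9 had an unadjusted p under 0.05, while DESeq2 called 1, Srebf1 in WKY rats of the RVLM (0.79, adjusted p = 0.0296). Among all genes, 0.464%, 13.7% and 0.179% changed in WKY rats and 0.232%, 0.649% and 0.358% in SHRs of the NTS, CVLM and RVLM. In WKY rats this change is mixed with the library-name number, since 3 rats of 8 wk carry the number 2. No WKY rat of 24 wk does. Those 3 rats also held the lowest 8 wk values of Srebf1 in the RVLM, 33.4 to 69.6 CPM. The WKY shares and the Srebf1 call are therefore not read as an effect of age alone. Of the 21 differences in level between regions 18 were called. Over all genes 65.9% were called for NTS over CVLM, 72.7% for NTS over RVLM and 54% for CVLM over RVLM. The 18 include those of Acsm3, which entered this fit only through its level in the NTS. The 3 that were not called were NTS over RVLM for Ephx2 and Srebf1 and NTS over CVLM for Endog. Deviations from the group means in 2 regions of the same rats had values of r between 0.568 and 0.690 for Chga and between -0.0345 and 0.473 for Ephx2, over 46 rats.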

How the data were processed

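RNA had been extracted from punches of frozen brainstem sections of 46 female rats and sequenced by a service laboratory, and the authors aligned the reads to the rat genome rn6 with STAR within RSEM. The deposited tables, 1 per region, hold RSEM expected counts per gene, which the authors did not scale. The methods name a batch adjustment of counts, and whether these tables carry it is not given in the sources used here, nor is the strandedness of the counting. Expected counts were rounded to whole numbers and scaled by TMM. Genes were kept whose largest rlog value (a log2 value with shrunken noise) in a region was at least 3.5. Strains were compared with edgeR 4.0.16 (R 4.3.3), by its robust quasi-likelihood test, in 1 fit per region over 10 groups of strain and age, and regions in a fit over the libraries of all regions with the rat as a block. Calls needed a Benjamini-Hochberg adjusted p, taken over every gene tested, below 0.05, and intervals are 95% intervals with 36 degrees of freedom within a region and 72 across regions.

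The alternatives were DESeq2 1.42.0, its size factors within edgeR, edgeR's expression filter, no filter, a replicate block, the library-name number as a term, leaving out rats of number 2 outside 10 wk, 2 surrogate variables (sva 3.50.0), each age fitted alone, leaving out 2 libraries of conflicting age, limma 3.58.1 on differences within rats, a stricter call (adjusted p of at most 0.01 and a log2 fold change of at least 1 in size), and leaving out each library. Leaving out the NTS libraries with choroid plexus markers above 100 CPM was chosen after seeing the data. Scripts were tested on simulated counts. The labels do not say that a replicate number marks shared rats, litters or days, and same-numbered samples deviated together in some groups only. The fits carry no replicate block. As an alternative, a block gave each number the same effect at all ages, which does not model pairs within an age. No replicates repeated a library: over 270 pairs within groups the lowest chi-square per gene was 4.85. The methods give 1 rat per cage, and the labels do not say how litters were shared, so p-values measure the spread between these rats.

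The members and gene lists were chosen with earlier results of these data known. All 7 members with a row were reported, and other genes were named from those with the 3 smallest adjusted p-values of their list in any region, the 3 nearest tested neighbours on each side, and the 3 closest in pattern. Cd36 was not analysed here.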

Additional observations from a re-analysis of the deposited data

Results flagged for a closer look

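Of 147 groups of 4 to 10 libraries, 10 held a library whose gap to its nearest neighbour was too wide for the group's range by Dixon's criterion, and chance gives about 1 such group in 20. All 10 were SHR groups, but WKY groups of 12, 16 and 24 wk, with 3 rats each, were too small to be checked. For Ephx2, the values that stood apart were 48.0 CPM in the NTS at 8 wk (replicate 3, the others 33.2 to 36.4), 22.1 CPM in the RVLM at 16 wk (replicate 2, the others 31.0 to 35.2) and 40.0 CPM in the RVLM at 24 wk (replicate 5, the others 28.8 to 30.8). None of the 3 reached the range of WKY rats. SHR replicate 2 of 16 wk was also the lowest for Gstm1 in the RVLM, at 109 CPM beside 159 to 188, and for Endog in the CVLM, at 17.1 CPM beside 24.4 to 27.1.

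For Ogn, SHR replicate 6 of 12 wk was high in both ventrolateral regions, at 13.1 CPM in the CVLM beside 6.32 to 7.73 and at 45.6 CPM in the RVLM beside 9.17 to 18.0. Its summed leptomeningeal and fibroblast markers were the highest of each of these regions, at 44.8 CPM in the CVLM and 74.1 CPM in the RVLM. Its summed astrocyte markers were also the highest of the RVLM, at 2455 CPM. The part of these cells in the Ogn values was not tested. Ogn in the NTS was low in SHR replicate 3 of 10 wk, at 13.8 CPM beside 20.1 to 22.0. Chga in the NTS was low in SHR replicate 6 of 24 wk, at 163 CPM beside 221 to 253. Replicate 6 of 12 wk and replicate 6 of 24 wk are the only SHRs of number 2 at those ages. As given above, WKY rats of number 2 at 8 wk also stood high in Ogn in the RVLM and low in Chga in the NTS. The part of that number in these values was not tested. Acsm3 in the CVLM was high in SHR replicate 5 of 10 wk, at 0.507 CPM beside 0 to 0.142.

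The strain effect of Chga differed between regions by the test of the difference, by 0.30 (adjusted p = 0.000227) for NTS over RVLM in edgeR's fit with the rat as a block. The same test gave -1.91 (adjusted p = 0.0492) for Acsm3, which entered the fit only through the NTS and had medians of 1.07 counts in WKY and 2.04 counts in SHR libraries of the RVLM, so no difference between regions is read from it. That call was lost with edgeR's expression filter (adjusted p = 0.0507) and without the rats of number 2 outside 10 wk (adjusted p = 0.0849).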

How the results depend on the processing

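No value that was called, in the reported fits or under an alternative, turned its direction, while uncalled values near 0 changed sign in 217 comparisons of a value with its alternative. The averaged strain effect was called for 7 values, for 5 to 9 under the alternatives with the same call rule, and for 4 under the stricter call. Single ages gave 24 calls and 19 to 26 under the alternatives. The change from 8 to 24 wk gave 0 calls, and 1 in DESeq2. Strain effects between regions gave 2 calls, 1 with edgeR's expression filter, 1 without the rats of number 2 outside 10 wk, and 0 under the stricter call, and the level between regions gave 18 calls and 3 under the stricter call. Leaving out each library in turn gave 6 to 9 averaged calls and 21 to 26 at single ages. It gave 0 to 3 calls for the change from 8 to 24 wk and 0 for the effect that varies with age. Leaving out each rat in turn, by limma, gave 2 to 4 calls between regions and 16 to 19 in level. Ephx2 was called in every region and age under each alternative and with each library left out.

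Whether same-numbered replicates deviate together differed between groups. Over 54 pairs of samples r ran from -0.333 to 0.554 with a median of 0.150, and 32 were over 0.1. In 22 the own number gave the highest correlation, and the share that unrelated samples would give was not worked out. Every pair was over 0.1 in the NTS at 12 and 24 wk and in the CVLM at 10 and 12 wk. The block changed no call of a member there. It gave each number the same effect at all ages, so it does not show what pairs within an age would change. In the other groups at least 1 pair was not. With the replicate block the averaged calls were 5 and the single-age calls 25. Endog in the NTS (-0.55, adjusted p = 0.0778) and Chga in the RVLM (-0.15, adjusted p = 0.120) were then not called, and Ogn in the CVLM at 8 wk was (-0.57, adjusted p = 0.0480). The cause was not tested. WKY groups of 3 rats at 12, 16 and 24 wk limit what single ages can show. Acsm3 in the CVLM and RVLM is limited by depth, with medians of 1.08 and 2.04 counts in SHR libraries.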

Other observations

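Genes that varied with the members from library to library, beyond strain, age and region, differed from gene to gene. Deviations of Gstm1 from its group means followed those of Ctsh, a lysosomal protease (r = 0.810 over the libraries of all regions), and those of Ogn followed F3, which encodes tissue factor (r = 0.715). F3 was itself higher in SHRs, by a log2 fold change of 1.14, 1.15 and 1.13 in the NTS, CVLM and RVLM at the averaged ages, each called in edgeR's quasi-likelihood test. Deviations of Ephx2 followed no gene closely, with a highest r of 0.422 for Cd24. These libraries share rats, so the values of r are descriptions. Of the fatty acid handling genes, Slc27a6, a transport protein, was lower in SHRs in the CVLM by -0.79 (SE 0.13) and in the RVLM by -0.45 (SE 0.12), and Lpl, lipoprotein lipase, was higher there by 0.49 (SE 0.13) and 0.76 (SE 0.14). Acsl1, a long-chain acyl-CoA synthetase, was lower in the same regions by -0.17 (SE 0.04) and -0.20 (SE 0.06).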
